A study of Bos taurus with 6 samples.

Results

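Fibro-adipogenic progenitors are cells of the space between muscle fibres, and 10 genes that mark them were followed in the back muscle of steers from 2 cattle breeds. The genes were fixed by name (PDGFRA, THY1, DPT, CD34, CLEC3B, DLK1, ZNF423, SFRP2, VIM and FAP), and every probe set whose annotation gave exactly 1 symbol from that list was taken. This gave 9 genes with 12 probe sets, out of 9155 genes named in the annotation and 24128 probe sets in the table. ZNF423 was the symbol of none of them and was not analysed here. Of the other genes, PDGFRA had 3 probe sets, DLK1 had 2 and the rest had 1 each. The samples were longissimus dorsi muscle from 3 Japanese Black steers, a beef breed known for fat within the muscle, and from 3 Holstein steers, a dairy breed. Both breeds had received an energy-rich feed, so breed was the contrast and no effect of the feed could be measured. Total RNA was hybridised as biotin-labelled cRNA, with 1 array per sample. The labels give male sex for all and no ages.

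Fibro-adipogenic progenitors carry the receptor PDGFRA and differ from satellite cells, the stem cells of the muscle fibre. They make connective tissue matrix, and a part of them can turn into the adipocytes that form fat within the muscle. Commitment to the fat lineage is known, from mouse and cattle cells, to involve the transcription factor ZNF423, while DLK1, also called preadipocyte factor, marks cells before the switch and holds adipocyte differentiation back in mouse cells. Among the 10 genes, DLK1 was therefore the only measured one tied to adipogenic commitment, as a marker of cells before it. The other 8 genes are markers of fibroblast identity. In RNA from whole muscle, fewer cells of a type and less RNA per cell cannot be told apart.

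Signals are linear intensities, and breed differences subtract Holstein from Japanese Black after log2(intensity + 16), a scale on which dim probe sets appear to differ less than they do. The median intensity of an array lay between 48.5 and 54.7, and the upper quartile was 205 in Japanese Black 3 against 172 to 181 on the other arrays. Markers of the muscle fibre were bright on every array: ACTA1, skeletal actin, read 14272 to 15099 in Japanese Black and 13606 to 14058 in Holstein. The 3′ to 5′ ratio of the actin control probe sets, a measure of RNA integrity, was 1.11 to 1.14 in Japanese Black and 1.003 to 1.07 in Holstein, so it separated the breeds. The part of this ratio in the results below was not tested. The correlation of Holstein 3 with the other arrays over all probe sets was 0.954 to 0.973, while the other pairs of arrays lay between 0.974 and 0.983.

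No marker passed the test between the breeds. With limma and Benjamini-Hochberg adjustment over 18012 probe sets, 0 of the 11 marker probe sets that were bright enough to test reached an adjusted p of 0.05, where 0.0167% of all probe sets did. At an unadjusted p under 0.05 there were 5 of 11, set beside 12.6% of all probe sets, and both DLK1 probe sets are among those 5. That count was 2 without Holstein 1, 3 without Japanese Black 2 or Holstein 3, 4 without Japanese Black 1, and 6 without Japanese Black 3 or Holstein 2, while the share of all probe sets stayed between 7.50% and 14.6%. Japanese Black and Holstein animals did not overlap for 3 of the 11, beside 19.8% of all probe sets: THY1 with Japanese Black above, beside 11.0% of all probe sets, and CLEC3B and the dimmer DLK1 probe set with Japanese Black below, beside 8.84%. With each gene at its brightest probe set, 3 genes had the higher mean in Japanese Black and 6 the lower, and the median log2 difference was -0.46, beside -0.01 over 8050 genes. Leaving out Japanese Black 2 brought this median to -0.08, leaving out Holstein 1 to -0.26 and leaving out Holstein 3 to -0.30. All differences are shown with their intervals in the plot of breed differences.

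**Figure D1:**
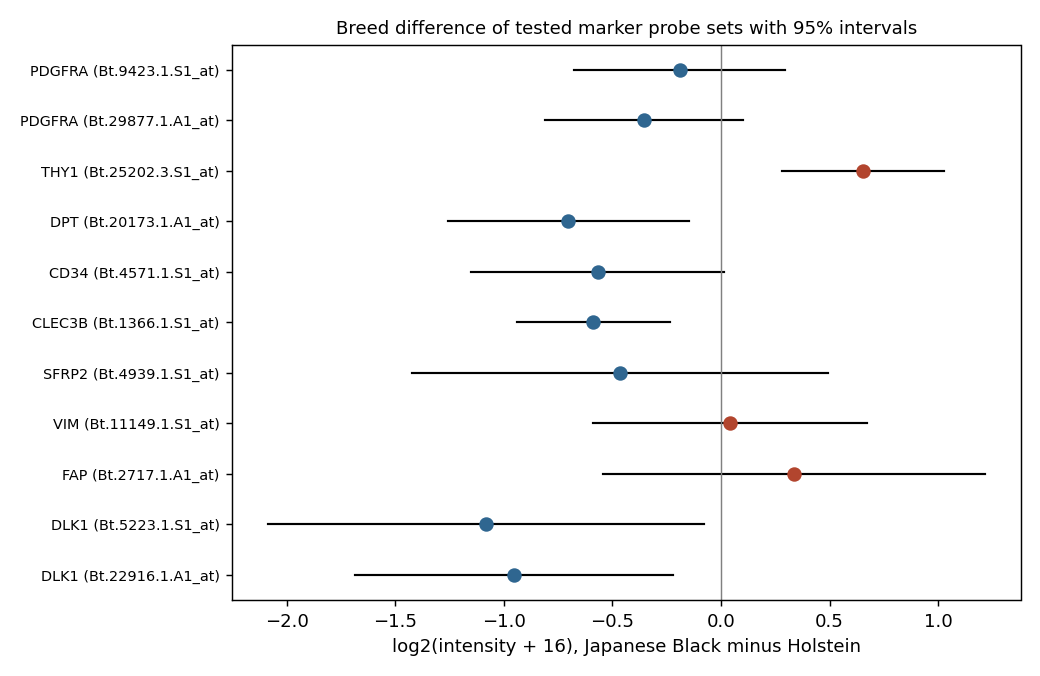
Breed difference (Japanese Black minus Holstein, log2(intensity + 16)) of the 11 tested marker probe sets, points with limma's 95% intervals from 3 arrays per breed. THY1 lies at 0.66 on the Japanese Black side, DLK1 at -1.08 and -0.95 on the Holstein side, and VIM, at 0.04, next to 0.

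For THY1 and CLEC3B the breeds did not overlap, in opposite directions, beside 19.8% of all tested probe sets without overlap. THY1 is a small glycoprotein anchored to the surface of fibroblasts, also known as CD90. Its probe set read 132, 129.6 and 146 in Japanese Black and 84.5, 89.8 and 68.0 in Holstein. Every Japanese Black value lay above every Holstein value. The means were 136 ± 9.16 in Japanese Black and 80.8 ± 11.3 in Holstein (SD, n = 3 each), a log2 difference of 0.66 (SE 0.16, 95% interval 0.28 to 1.03) that did not pass in limma (adjusted p 0.287, unadjusted 0.00332).

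CLEC3B encodes tetranectin, a secreted protein that binds plasminogen and is a common marker of interstitial fibroblasts. It read 854, 831 and 860.1 in Japanese Black and 1256, 1108 and 1516 in Holstein. The Japanese Black animals were almost level, with an SD of 15.6 around 848, whereas the Holstein animals spread over an SD of 207 around 1293. Here the difference was -0.59 (SE 0.16, 95% interval -0.94 to -0.23), with an adjusted p of 0.3004 in limma. Across the fits that left out 1 array, THY1 stayed between 0.56 and 0.72 and CLEC3B between -0.69 and -0.47, both without passing.

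PDGFRA, the receptor for platelet-derived growth factor that defines these progenitors, had the lower mean in Japanese Black at every probe set. None of those tested passed in limma, and the probe sets ranked Japanese Black 3 differently. At its brightest probe set the values were 182, 188 and 309 in Japanese Black and 248, 259.7 and 250.5 in Holstein. Holstein animals were tightly grouped, and the Japanese Black animals lay on both sides of them. The log2 difference was -0.19 (SE 0.21, 95% interval -0.67 to 0.30, limma adjusted p 0.717). It was -0.42 without Japanese Black 3, -0.06 without Japanese Black 1 and -0.08 without Japanese Black 2.

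A dimmer PDGFRA probe set read 53.6, 49.0 and 28.9 in Japanese Black and 61.5, 65.3 and 51.5 in Holstein, a difference of -0.35 (SE 0.20, limma adjusted p 0.481) that was -0.16 without Japanese Black 3. Japanese Black 3 was the highest of all arrays at the first of these probe sets and the lowest at the second. The remaining one was below the brightness filter and was not tested. Its values were 7.08, 9.64 and 17.5 in Japanese Black and 23.7, 25.9 and 17.2 in Holstein, with Japanese Black 3 and Holstein 3 overlapping narrowly. Among the genes of the PDGF system listed beside it, PDGFRB, the receptor of pericytes, was the only one annotated, at a difference of -0.03.

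**Figure D2:**
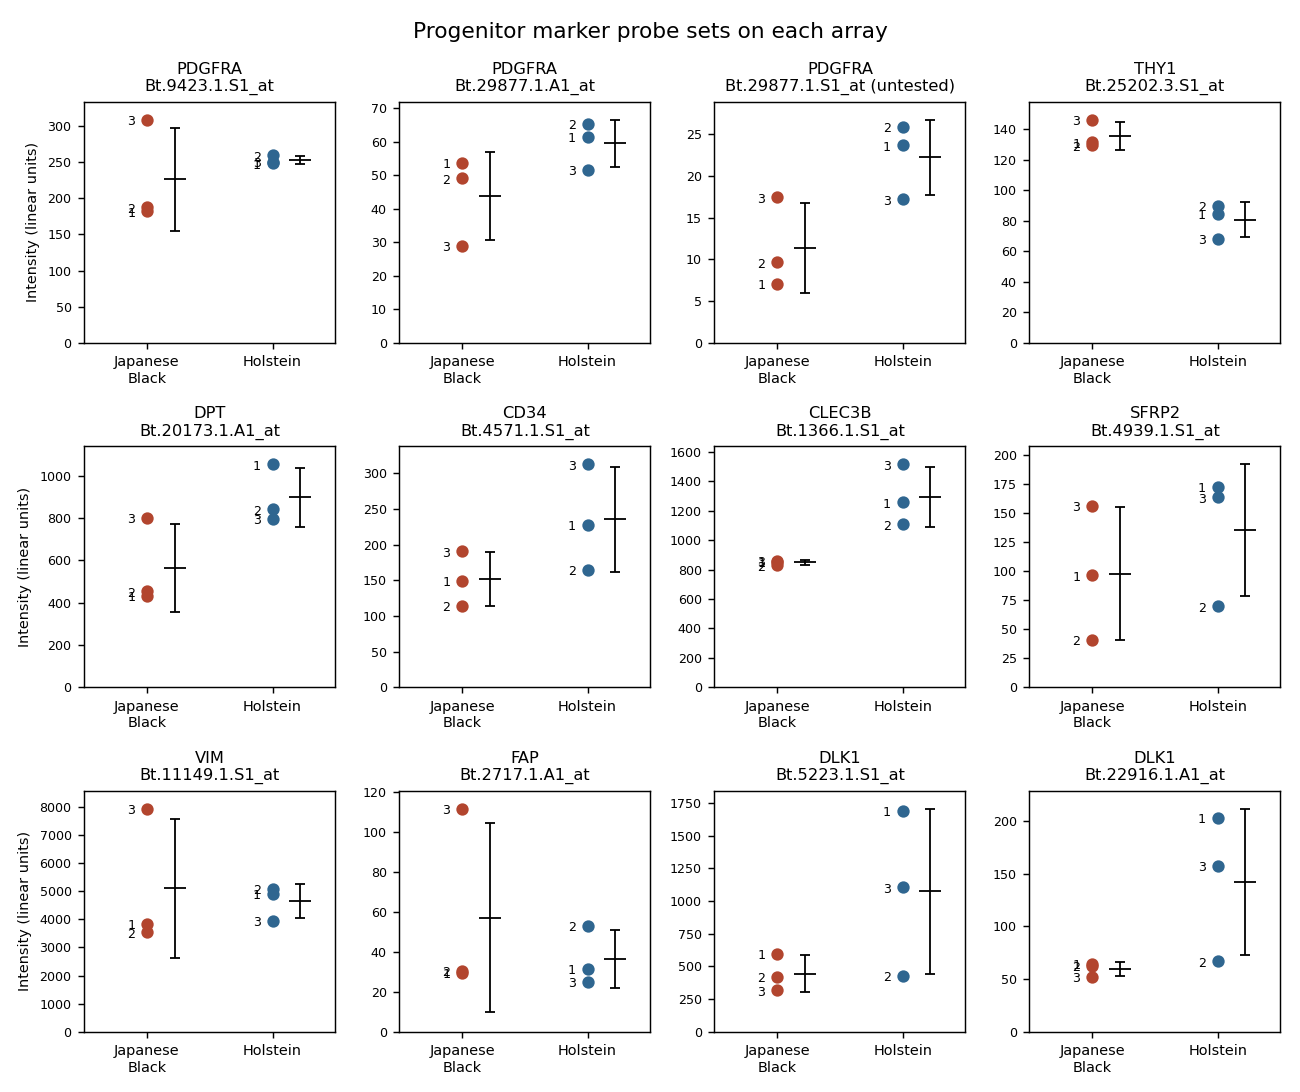
Linear intensity of each of the 12 marker probe sets in the 3 Japanese Black (red) and 3 Holstein (blue) animals; numbers name the animals, and black bars give the mean and SD. The breeds do not overlap for THY1, CLEC3B and the dimmer DLK1 probe set, beside 19.8% of all tested probe sets. Japanese Black 3 stands above the other 5 animals for VIM, FAP, THY1 and the brightest PDGFRA probe set.

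The secreted matrix markers DPT and SFRP2 both had their lower mean in Japanese Black. DPT encodes dermatopontin, a matrix protein that binds decorin. It read 434, 454 and 803 in Japanese Black and 1056, 843 and 797 in Holstein, so that Japanese Black 3 just overlapped Holstein 3. The difference was -0.70 (SE 0.24, 95% interval -1.26 to -0.15), which did not pass in limma (adjusted p 0.346). After quantile normalization or median centring the breeds no longer overlapped for DPT, whereas they then did overlap at the dimmer DLK1 probe set.

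SFRP2, a secreted modulator of Wnt signals, read 96.6, 41.1 and 156 in Japanese Black and 173, 69.9 and 163 in Holstein. Each breed held high and low animals, a 4.20-fold range in all. The difference of -0.46 (SE 0.42, 95% interval -1.42 to 0.49, limma adjusted p 0.649) shrank to -0.04 without Japanese Black 2, and reached -0.83 when either Japanese Black 3 or Holstein 2 was left out. Dropping Holstein 1 gave -0.26, and dropping Holstein 3 gave -0.30. Of 10 other genes of the Wnt pathway and the SFRP family that were tested, 0 passed in limma and 0 had an unadjusted p under 0.05, beside 11.3% of all 8050 genes at their brightest probe set, with 8 lower and 2 higher in Japanese Black and a median of -0.16. Their smallest p belonged to FRZB, a secreted Wnt antagonist (-0.42), AXIN2, a Wnt target (-0.24), SFRP4 (0.31) and DKK3 (-0.32, with 0.03 at its second probe set).

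CD34, a surface sialomucin of progenitors that capillary endothelium also carries, read 149, 115 and 191 in Japanese Black and 228, 165 and 313 in Holstein. Only Japanese Black 3 and Holstein 2 were out of order between the breeds. Its difference was -0.57 (SE 0.26, 95% interval -1.15 to 0.01, limma adjusted p 0.405), and it was -0.35 without Holstein 3. Endothelial genes had the same direction: 12 of 14 listed genes were annotated, 11 were lower and 1 higher in Japanese Black, and their median difference was -0.32. The summed intensity of these genes was 2554 to 3919 in Japanese Black and 3612 to 4586 in Holstein, and Japanese Black 2 was lowest for both CD34 and the sum. EGFL7, a factor secreted by endothelium, had a difference of -0.61, ROBO4 one of -0.65, SOX18 one of -0.37 and the junction gene CLDN5 one of -0.52, and 0 of the 12 passed in limma, with 2 at an unadjusted p under 0.05, beside the 11.3% of all genes. The defining endothelial markers PECAM1, CDH5 and VWF differed by -0.14, -0.33 and 0.17, and the second VWF probe set gave -0.02. The part of endothelial RNA in the CD34 values was not tested.

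VIM and FAP stood apart in 1 animal. VIM encodes vimentin, the intermediate filament of mesenchymal cells, and FAP a surface protease of activated fibroblasts. The VIM values were 3829, 3529 and 7931 in Japanese Black and 4899, 5091 and 3940.3 in Holstein. Those of FAP were 29.3, 30.4 and 111 in Japanese Black and 31.4, 52.9 and 24.9 in Holstein. In both, Japanese Black 3 was the highest of the 6 animals, and the other Japanese Black animals lay below or among the Holstein animals. The breed differences were 0.04 (SE 0.28, 95% interval -0.59 to 0.67, limma adjusted p 0.961) for VIM and 0.33 (SE 0.39, 95% interval -0.55 to 1.21, adjusted p 0.725) for FAP. Without Japanese Black 3 they turned to -0.33 and -0.16.

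Within Japanese Black, animal 3 was the highest at 9 of the 10 probe sets of the identity genes, the dimmer tested PDGFRA probe set being the exception. The 9 include the untested PDGFRA probe set, and CLEC3B, where animal 3 was only just the highest (860.1 against 854). Over all tested probe sets animal 3 was the highest of the Japanese Black animals at 49.9%. At 1 probe set per gene it was the highest of them for 17 of 17 adipocyte genes and 9 of 10 genes of mural cells, the smooth muscle and pericytes of vessels. It was the highest of all 6 animals for 14 and 7 of these, beside 32.0% of the 8050 genes tested. Among the other lists it was highest in its breed for 17 of 25 other fibroblast genes, 7 of 12 endothelial and 6 of 10 leukocyte genes. The same held for 7 of 10 Wnt and SFRP, 3 of 4 satellite cell, 4 of 4 muscle fibre and 3 of 5 tendon genes. Lower shares were seen for 7 of 18 adipogenic regulators, 2 of 4 genes listed beside DLK1, 1 of 4 nerve genes and 0 of 1 PDGF gene. All these counts stand beside 53.3% of the 8050 genes tested. FABP4, a fatty acid carrier inside adipocytes, read 1615, 1726 and 7635 in Japanese Black and 3899, 6646 and 1021 in Holstein. ADIPOQ, which encodes adiponectin, read 47.0, 83.4 and 288 in Japanese Black and 147, 181 and 33.5 in Holstein. The summed intensity of the 17 annotated adipocyte genes (of 19 listed) was 14483 to 40315 in Japanese Black and 8834 to 27322 in Holstein. For the 10 annotated mural genes (of 11) it was 10538 to 21908 in Japanese Black and 12176 to 18885 in Holstein. Of this mural sum, DES alone gave 6083 to 8492 in Japanese Black and 7015 to 9227 in Holstein. The part of muscle fibre RNA in the DES values was not tested. None of the annotated defining markers of adipocytes or mural cells was at 0 on any array. The part of RNA from these other cell types in the values of Japanese Black 3 was not tested.

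**Figure D3:**
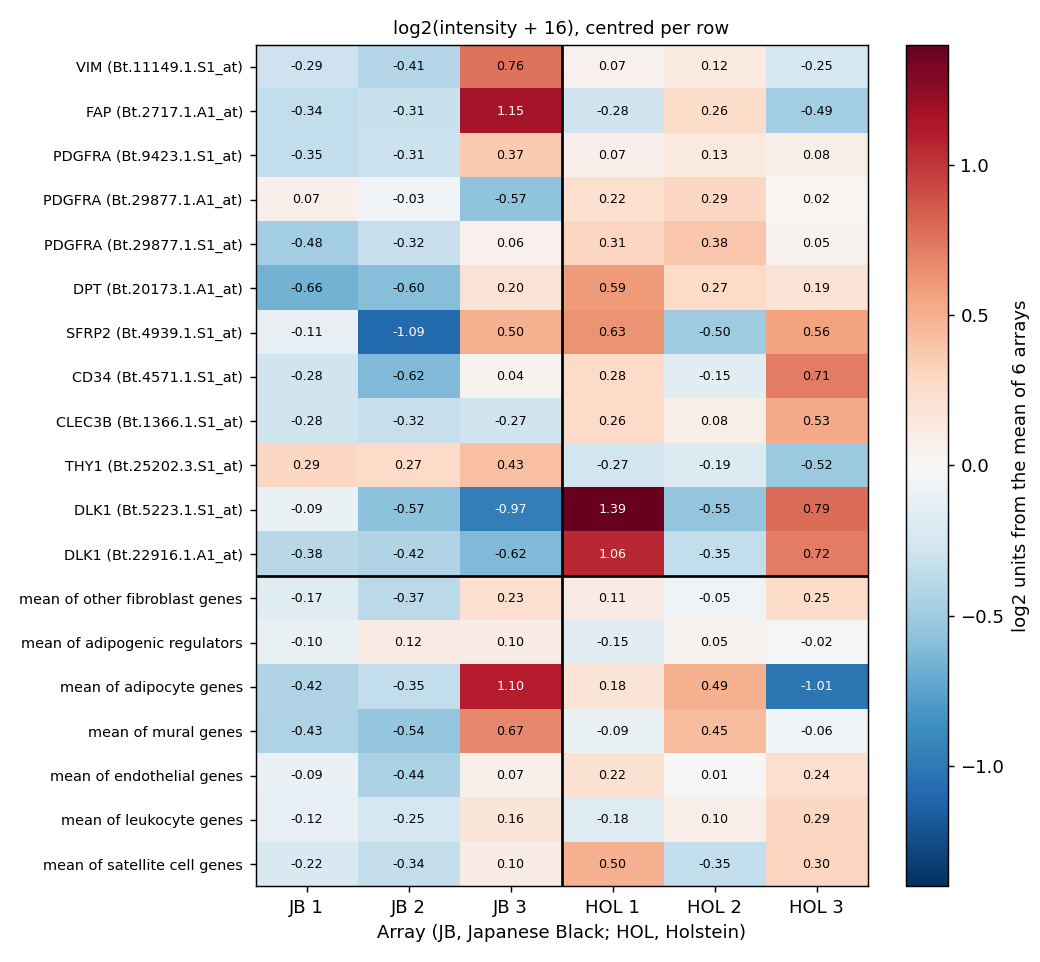
Deviation of each array (columns) from the mean of the 6 arrays, in log2 units, for the 12 marker probe sets (above the line) and for the mean of 7 gene lists (below it); red is above and blue below the mean. Japanese Black 3 is at 0.76 for VIM, 1.15 for FAP and 1.10 for the adipocyte list, while DLK1 is at 1.39 in Holstein 1, 0.79 in Holstein 3 and -0.55 in Holstein 2.

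DLK1, a transmembrane protein with EGF-like repeats, had the largest breed difference among the markers, and it rested on Holstein 1 and 3. The brighter probe set read 596, 422 and 317 in Japanese Black and 1689, 427 and 1105 in Holstein. The dimmer one read 64.7, 62.5 and 52.4 in Japanese Black and 203, 66.7 and 157 in Holstein. At both, Holstein 1 was highest, Holstein 3 second and Japanese Black 3 lowest, and Holstein 2 lay close to the Japanese Black animals. The means at the brighter probe set were 445 ± 141 in Japanese Black and 1074 ± 632 in Holstein (SD, n = 3 each). Its difference was -1.08 (SE 0.44, 95% interval -2.09 to -0.08, limma adjusted p 0.383), and that of the dimmer one was -0.95 (SE 0.32, 95% interval -1.68 to -0.22, adjusted p 0.341). Without Holstein 2 they were -1.63 (limma adjusted p 0.114) and -1.36 (0.0833). Without Holstein 1 they were -0.66 at each.

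DLK1 is an imprinted gene, expressed from the paternal chromosome in a domain whose maternal chromosome expresses the non-coding RNA MEG3. A mutation in this domain is known to cause muscle hypertrophy in callipyge sheep. MEG3 had 5 probe sets, and all 5 had the lower mean in Japanese Black, with differences between -0.68 and -0.26 and limma adjusted p between 0.310 and 0.512. The brightest read 89.0, 80.9 and 132 in Japanese Black and 192, 150.1 and 148 in Holstein, with no overlap. Holstein 2 was below Holstein 3 at 3 of the 5 MEG3 probe sets, and the brightest was not among these. The breeds did not overlap at 3 of the 5 MEG3 probe sets, beside the 19.8% of all probe sets given above. These 5 probe sets measure the same gene in the same animals, so they are not independent.

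DLK2, a relative of DLK1, read 106, 94.5 and 65.1 in Japanese Black and 139.6, 109 and 147 in Holstein, a difference of -0.51 (SE 0.20, limma adjusted p 0.377) at its brighter probe set and -0.10 at the other. HEY1, a Notch target, differed by -0.17. MYOG, the transcription factor of differentiating myoblasts, read 89.3, 58.3 and 98.6 in Japanese Black and 181, 75.3 and 176 in Holstein, with a difference of -0.65 (SE 0.31, limma adjusted p 0.426). As with DLK1, Holstein 1 and 3 were the high animals and Holstein 2 lay among the Japanese Black animals. The other tested genes of the satellite cell list were MYF5 (-0.26), ITGA7 (-0.11) and MYOD1 (-0.19). The summed intensity of the 4 genes was 1050.5 to 1653 in Japanese Black and 1318 to 1918 in Holstein. Of this sum, ITGA7 alone gave 917 to 1568 in Japanese Black and 1179 to 1689 in Holstein. The part of myoblast RNA in the DLK1 values was not tested.

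**Figure D4:**
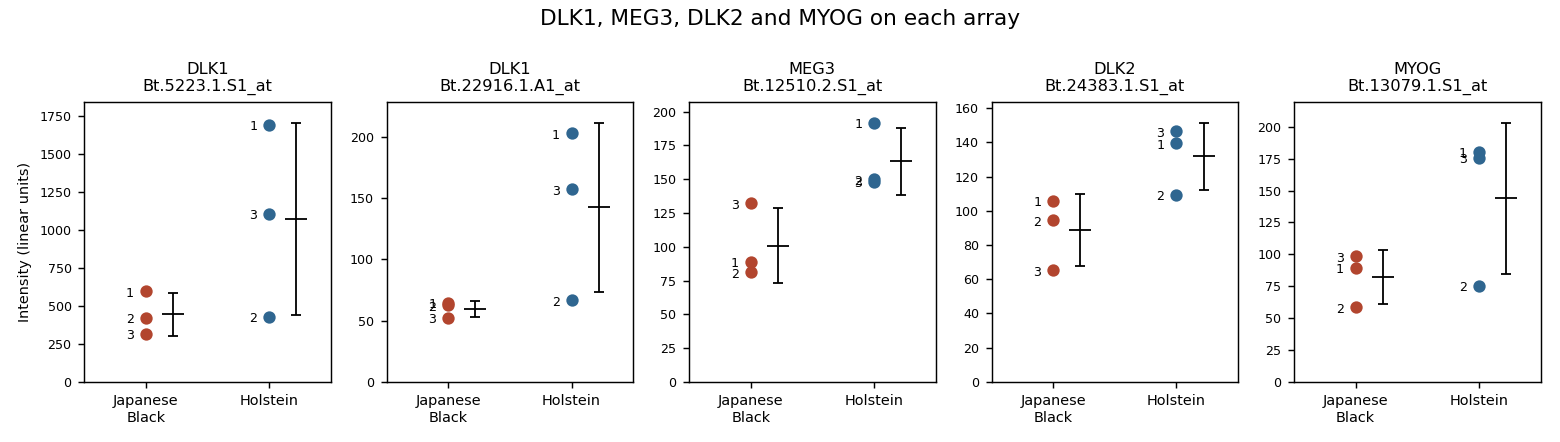
Linear intensity of the 2 DLK1 probe sets and of the brightest MEG3, DLK2 and MYOG probe sets in 3 Japanese Black (red) and 3 Holstein (blue) animals, numbered; black bars give the mean and SD. Holstein 2 lies close to the Japanese Black animals for DLK1 (427 and 66.7) and MYOG (75.3), and above them for MEG3 (150.1).

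Identity genes and DLK1 parted most in Japanese Black 3. The mean of the 8 identity genes, each centred on its own mean over the arrays, was -0.25, -0.42 and 0.40 in Japanese Black and 0.17, 0.004 and 0.10 in Holstein. DLK1 centred likewise stood at -0.09, -0.57 and -0.97 in Japanese Black and at 1.39, -0.55 and 0.79 in Holstein. Apart from Japanese Black 3, the animals with the highest identity means, Holstein 1 and 3, also had the highest DLK1, and Japanese Black 2 was lowest for both. DLK1 minus identity was therefore lowest in Japanese Black 3 (-1.36), which had the highest identity mean, and highest in Holstein 1 (1.22). The remaining values were 0.17 and -0.15 in Japanese Black and -0.56 and 0.68 in Holstein, so the breeds overlapped. Japanese Black 3 and Holstein 2, the animals with the highest and second highest summed adipocyte intensity, had the lowest of these values. Holstein 3 had the lowest adipocyte sum and a value of 0.68, and Holstein 1, with a sum of 25031 close to the 27322 of Holstein 2, had the highest value. At DLK1 alone, Japanese Black 2 (-0.57), with an adipocyte sum of 15081, lay just below Holstein 2 (-0.55). A relation of these values to the adipocyte sum was not tested.

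Other genes of fibroblasts had mostly lower means in Japanese Black, without passing. Of 30 listed genes 25 were annotated and tested, 0 passed in limma, 5 had an unadjusted p under 0.05 (11.3% of all genes did), 18 were lower and 7 higher in Japanese Black, and the median difference was -0.25. SMOC2, a secreted calcium-binding matrix protein, read 292, 266 and 399.8 in Japanese Black and 189, 174 and 167 in Holstein, with no overlap. Its difference was 0.78 (SE 0.19, limma adjusted p 0.287), and its second probe set gave 1.10. OGN, a small proteoglycan, had a difference of 0.40 with no overlap between the breeds. Against these, IGFBP6, which binds insulin-like growth factors, had -0.78 and S100A4, a calcium-binding protein of motile fibroblasts, had -0.82, and at both Japanese Black 3 was inside the Holstein range. Like THY1 and CLEC3B, the fibroblast genes with the smallest p thus lay in both directions. Among the 25 genes the breeds did not overlap for 3 with Japanese Black above and 1 with it below. Over 8050 genes at 1 probe set each, 19.2% did not overlap in either direction.

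Regulators of adipogenesis showed small differences. Of 31 listed symbols 18 were annotated and 16 tested, with 11 above and 5 below their Holstein level, a median of 0.06, and 0 past the limma test or an unadjusted p of 0.05. SMAD4, which carries BMP and TGF-beta signals to the nucleus, had 0.29, the BMP receptors BMPR1A and BMPR2 had 0.54 and 0.21, and ZEB1 had 0.15. The other BMPR2 probe sets ran from -0.45 to 0.07. PPARG, the master regulator of adipocyte differentiation, was chosen after its values were seen. It read 28.0, 55.2 and 113 in Japanese Black and 54.8, 70.7 and 30.3 in Holstein, with Japanese Black 3 and Holstein 2 highest. Of the 17 adipocyte genes 0 passed in limma, and 0 had an unadjusted p under 0.05; the mean was higher in Japanese Black for 12 and lower for 5, and the median difference was 0.23. AGPAT2 (0.37), CD36 (0.48), PNPLA2 (0.22) and CIDEA (0.40) had the smallest p. In Japanese Black, 7 mural genes were lower and 3 higher (median -0.20), and 6 leukocyte genes were lower and 3 higher (median -0.13). In both 0 passed in limma, and 1 mural gene, LMOD1 (-0.40), had an unadjusted p under 0.05. The counts at an unadjusted p in these lists stand beside 11.3% of all 8050 genes at their brightest probe set.

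**Figure D5:**
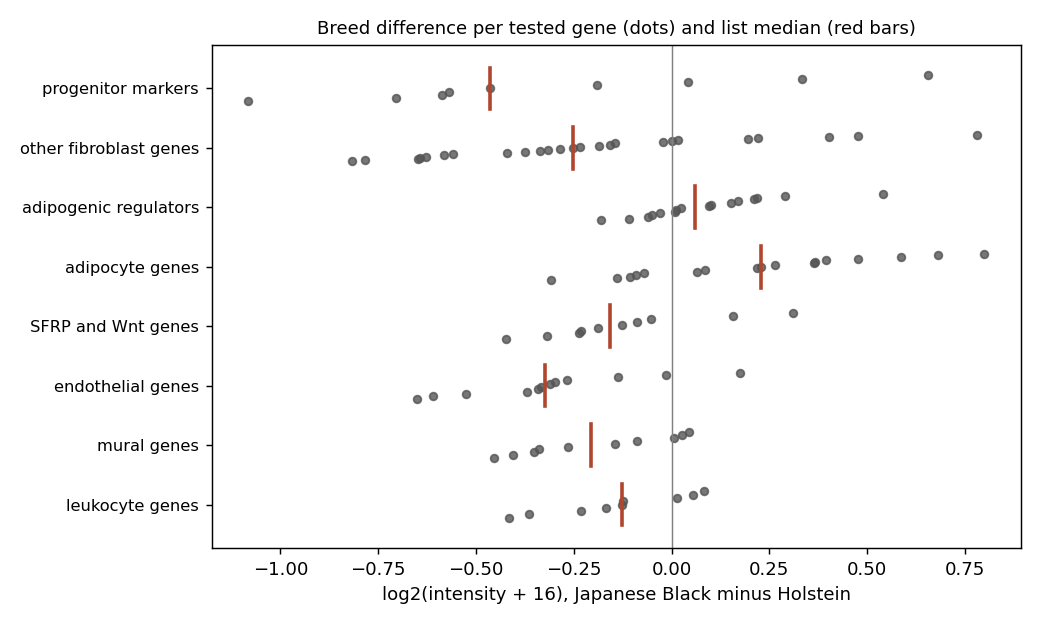
Breed difference (Japanese Black minus Holstein, log2(intensity + 16)) of each tested gene at its brightest probe set (dots) and the median of its list (red bars). Medians are -0.46 for the progenitor markers, -0.25 for other fibroblast genes and -0.32 for endothelial genes, against 0.06 for adipogenic regulators and 0.23 for adipocyte genes.

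Among 8041 genes, those most like the brightest PDGFRA probe set in profile were sought. The measure was the root mean square difference between centred log2 values over the 6 arrays. The dimmer tested PDGFRA probe set was not the reference, and the animal highest at the brightest was lowest there. The genes below are therefore neighbours of the brightest probe set only. The closest gene was TMED3, a protein of vesicle transport, at 0.04, followed by TCF7L2 at 0.05 and CD151 at 0.05. CAP1 lay at 0.06 and EEF1A1, a translation elongation factor, also at 0.06. The median over the genes was 0.30. A gene with a flat profile over the arrays would lie at 0.25, nearer than this median. TCF7L2, a Wnt transcription factor used as a marker of muscle connective tissue fibroblasts, read 98.6 to 159.7 in Japanese Black and 125 to 134 in Holstein.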

How the data were processed

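Each probe set has 1 deposited intensity per array, on a linear scale. The submitters' processing notes name GCOS 1.1.1 and Affymetrix Expression Console 1.1. For the probe summary and the scaling, the method is not given in the sources used here. Breed came from the labels, and replicate numbers only name the animals. The limma p-values set the breed difference against the spread between animals within a breed, moderated with the spread of other probe sets. The labels pair no animals, so the fit was unpaired although the series design names a paired test.

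After 112 control probe sets were removed, 16 was added to each intensity, log2 was taken and the dimmest 25% of 24016 probe sets were left out. limma 3.58.1 in R 4.3.3 (lmFit, eBayes with trend) compared the breeds, two-sided, over 18012 probe sets. For simulated data of this comparison, 24016 probe sets were drawn independently and 18012 were tested, with 200 altered in each of 5 runs. Changes of 0.5, 1 and 2 in log2 were recovered in 1.60%, 48.8% and 90.8% of altered probe sets, with 25 false among 622 calls. With so many altered probe sets the adjusted threshold was less strict than in the real data, where 3 passed. These shares therefore do not give the share of such changes that would be recovered here.

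Platform annotation gave 13292 probe sets 1 symbol, 86 several and 10638 none; 13263 matched RefSeq gene identifiers, which changed 0 symbols. Genes in lists were taken at their probe set of highest mean. All marker probe sets were named, and per list up to 4 genes with the smallest p. The nerve, tendon and muscle fibre lists served as checks. Markers and lists were chosen with earlier results of these data known. Figures were drawn with matplotlib 3.10.9.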

Additional observations from a re-analysis of the deposited data

How the results depend on the processing

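No paired analysis was possible because the labels give the breeds no shared animal or replicate numbers. The count of markers past the adjusted threshold was 0 under each of 15 alternatives (offsets, filters, scalings, variance models, array weights, the methods' t-test run unpaired, and each array left out). The methods' t-test gave 2 of 11 at an unadjusted p under 0.05, where limma gave 5. Of 163 recomputed differences 159 kept their direction. The exceptions were VIM, at -0.21 with array weights, and -0.33 (without Japanese Black 3) to 0.26 (without Japanese Black 2) when 1 array was left out, with -0.07 without Holstein 3, and FAP, at -0.16 (without Japanese Black 3) to 0.59 (without Japanese Black 1); the cause was not tested. The count of markers whose breeds do not overlap, an alternative added after seeing the data, ranged from 3 to 7 when 1 array was left out. It was 7 of 11 without Japanese Black 3, where 31.8% of all probe sets did not overlap, 6 without Holstein 2 (33.9%), and 5 without Japanese Black 1 (31.7%) or Holstein 3 (25.3%). With fewer arrays, separation by construction is more frequent. Over all probe sets 3 passed, against 0 with an offset of 1, 0 with the dimmer 50% left out, 0 by the methods' t-test and 10 with array weights. It was 0 to 15 when 1 array was left out, 0 without any 1 of the Japanese Black animals, 15 without Holstein 2 and 1 without Holstein 3. With 3 arrays per breed the precision is low, and the 3 PDGFRA and 2 DLK1 probe sets cannot be set against each other in level.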

Other observations

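Lists of nerve, tendon and muscle fibre genes, used as checks, held few annotated genes, and 0 passed in limma. At an unadjusted p under 0.05 were S100B, of 3 nerve genes tested, and THBS4, of 4 tendon genes tested. Of all 8050 genes at their brightest probe set, 11.3% were. In the nerve list, S100B, a calcium-binding protein of Schwann cells that adipocytes also express, read 2218, 1370.0 and 2739 in Japanese Black and 876, 1354 and 1029.5 in Holstein, a log2 difference of 0.91 (SE 0.26, adjusted p 0.313). SOX10, a transcription factor of Schwann cells, differed by -0.30 with no overlap in the opposite direction, and NGFR by -0.15, with its other probe sets from -0.23 to 0.50.

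Among tendon genes, THBS4, a matrix thrombospondin, had a difference of 0.48. COMP, of the same thrombospondin family, had -0.66, and 0.19 at its second probe set. TNMD, tenomodulin, was below the brightness filter. It read 3.97, 13.8 and 17.1 in Japanese Black and 0.01, 0.03 and 0.01 in Holstein, all at the dim end of the array, so no fold is given. The fibre genes CKM, MB, ACTA1 and MYH7 differed by -0.18, -0.01, 0.09 and 0.07.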
